A study of Mus musculus with 6 samples.

Results

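The genes described here code for the protein subunits of oxidative phosphorylation, encoded in the nucleus or in mitochondrial DNA. Members were the rows of the deposited gene table whose symbol begins with Nduf and a subunit letter and number, Sdh with a subunit letter, Uqcr, Cox4 to Cox8, Atp5, or mt-Nd, mt-Co, mt-Atp or mt-Cytb, with Ndufa4l2 left out. The rule used symbols and no measured value. It found 100 of 22063 genes, of which 87 are nuclear and 13 are mitochondrial. Complex I holds 38 nuclear and 7 mitochondrial members, complex II 4 nuclear, complex III 8 nuclear and 1 mitochondrial, complex IV 19 nuclear and 3 mitochondrial, and complex V 18 nuclear and 2 mitochondrial.

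RNA came from primary mouse cardiac fibroblasts of a C57BL/6J background that carried floxed Tet3 alleles. The GFP group (3 libraries, labelled Control) received an adenovirus coding for GFP, and the CRE group (3 libraries, labelled Tet3 knockout) received an adenovirus coding for Cre recombinase. Both groups were then treated with TGF-β, the cytokine that drives fibroblasts to become myofibroblasts. Both adenoviruses use the CMV promoter, which is active in most cell types, and per the study's methods both also code for EGFP, so any cell in the culture that took up the virus was exposed. Untreated cells were not analysed here. The comparison asks how subunit mRNA differs when Tet3, which encodes a dioxygenase that oxidises 5-methylcytosine in DNA, is targeted in treated fibroblasts.

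Oxidative phosphorylation passes electrons from NADH through complex I, or from succinate through complex II, to ubiquinone, then through complex III and cytochrome c to complex IV, which reduces oxygen. Complexes I, III and IV pump protons across the inner mitochondrial membrane, and complex V, the ATP synthase, uses the return flow of protons to make ATP. Complex II is wholly nuclear-encoded, whereas the other complexes combine nuclear subunits with subunits read from long mitochondrial transcripts that are cut into shorter mRNAs.

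Total counts were between 17002126 and 20343590 per library, and 3 counts, the limit that a count of 0 allows, correspond to between 0.156 and 0.187 CPM (the TMM-scaled normalised read count). These limits cover counting error only. Tet3 was at 64.9, 54.4 and 52.0 CPM in GFP and 34.5, 35.9 and 33.6 CPM in CRE replicates 1 to 3 (log2 fold change -0.72 ± 0.08 SE, edgeR adjusted p = 5.36e-05), without overlap. Summed fibroblast markers were between 40800 and 42100 CPM in GFP and between 22300 and 24400 CPM in CRE. Of the 9, 8 were lower in CRE (88.9%, beside 25.7% of all tested genes that were lower), and Thy1 (-0.10) did not pass the test. Most of the sum is from the collagen genes Col1a1, Col1a2 and Col3a1, with means of 13730, 11570 and 9804 CPM in GFP. The 12 cardiomyocyte markers together stayed between 0.733 and 1.29 CPM in every library, with 2 of them at 0 throughout and none past the expression filter. Summed endothelial markers were between 431 and 477 CPM in GFP and between 206 and 231 CPM in CRE, macrophage markers between 57.7 and 65.8 CPM and between 34.0 and 37.3 CPM, and smooth muscle and pericyte markers between 65.5 and 72.4 CPM and between 61.6 and 69.4 CPM. The last sum holds opposite changes, since Rgs5 (log2 fold change -1.19), Abcc9 (-1.08) and Myh11 (-0.85) were lower and Cspg4 (1.03), from a mean of 16.1 to 32.6 CPM, was higher, out of 6. The part of these differences in the values below was not tested, and in bulk RNA fewer cells of a type and less RNA per cell cannot be told apart. The study describes its replicates as biological, but neither it nor the labels say that these libraries came from separate cultures or animals, so the p-values measure the spread between these samples, which may be technical.

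Most subunit mRNAs differed little between the groups. Of the 100 members, 91 passed the expression filter, 78 nuclear and all 13 mitochondrial. Of these 91, 5 were higher and 16 were lower in CRE at an adjusted p under 0.05 (edgeR quasi-likelihood test with Benjamini-Hochberg adjustment over 12862 genes). This is 23.1% of the tested members, beside 51.2% of all tested genes (25.5% higher and 25.7% lower). The CPM of CRE and GFP did not overlap for 36.3% of tested members, beside 59.6% of all tested genes. The median log2 fold change was -0.02 over tested members and 0.005 over all tested genes. The 95% interval of the log2 fold change lay within a fold of 1.5 either way for 87 of 91 members (95.6%), beside 60.1% of all tested genes. The other 4 were mt-Atp8, mt-Nd3, Atp5g2 and Cox6b2. Past a fold of 1.5 or under 0.66 with an adjusted p under 0.05 were 2 members, Cox6b2 (higher) and mt-Atp8 (lower), beside 17.0% of all tested genes. Of these, Cox6b2 passed the expression filter only through the CRE libraries.

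The balance of higher and lower calls depended on the scaling. It was 33 higher and 6 lower with library size alone, 31 and 5 with limma on log2(FPKM + 1), 13 and 16 with upper-quartile scaling, and 18 and 12 with offsets for transcript length and GC content. These were 42.9%, 39.6%, 31.9% and 33.0% of the members, beside 59.2%, 53.6%, 51.4% and 51.7% of all genes tested in the same fits. Under library size alone, the median over all tested genes went from 0.005 to 0.167 (log2) and that of nuclear members from -0.007 to 0.155, a shift of like size. On FPKM these medians were 0.135 and 0.152. Without GFP replicate 3 and CRE replicate 2 together, 8 members were higher and 7 were lower (16.5%, beside 35.0% of all tested genes).

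Those 2 libraries stood apart on the nuclear members with short transcripts, and GFP replicate 3 also on the longer ones. Of the 59 tested nuclear members with transcripts under 1000 bases, GFP replicate 3 was the highest GFP library for 49 and CRE replicate 2 the lowest CRE library for 47. Their median CPM was 1.11 and 0.912 of the mean of the other libraries of the group. For the 19 longer nuclear members the counts were 15 and 8, and the medians 1.05 and 0.997. Over all tested genes under 1000 bases the medians were 1.02 and 0.985. The part of transcript length in the calls was not tested beyond the fits named here.

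**Figure D1:**
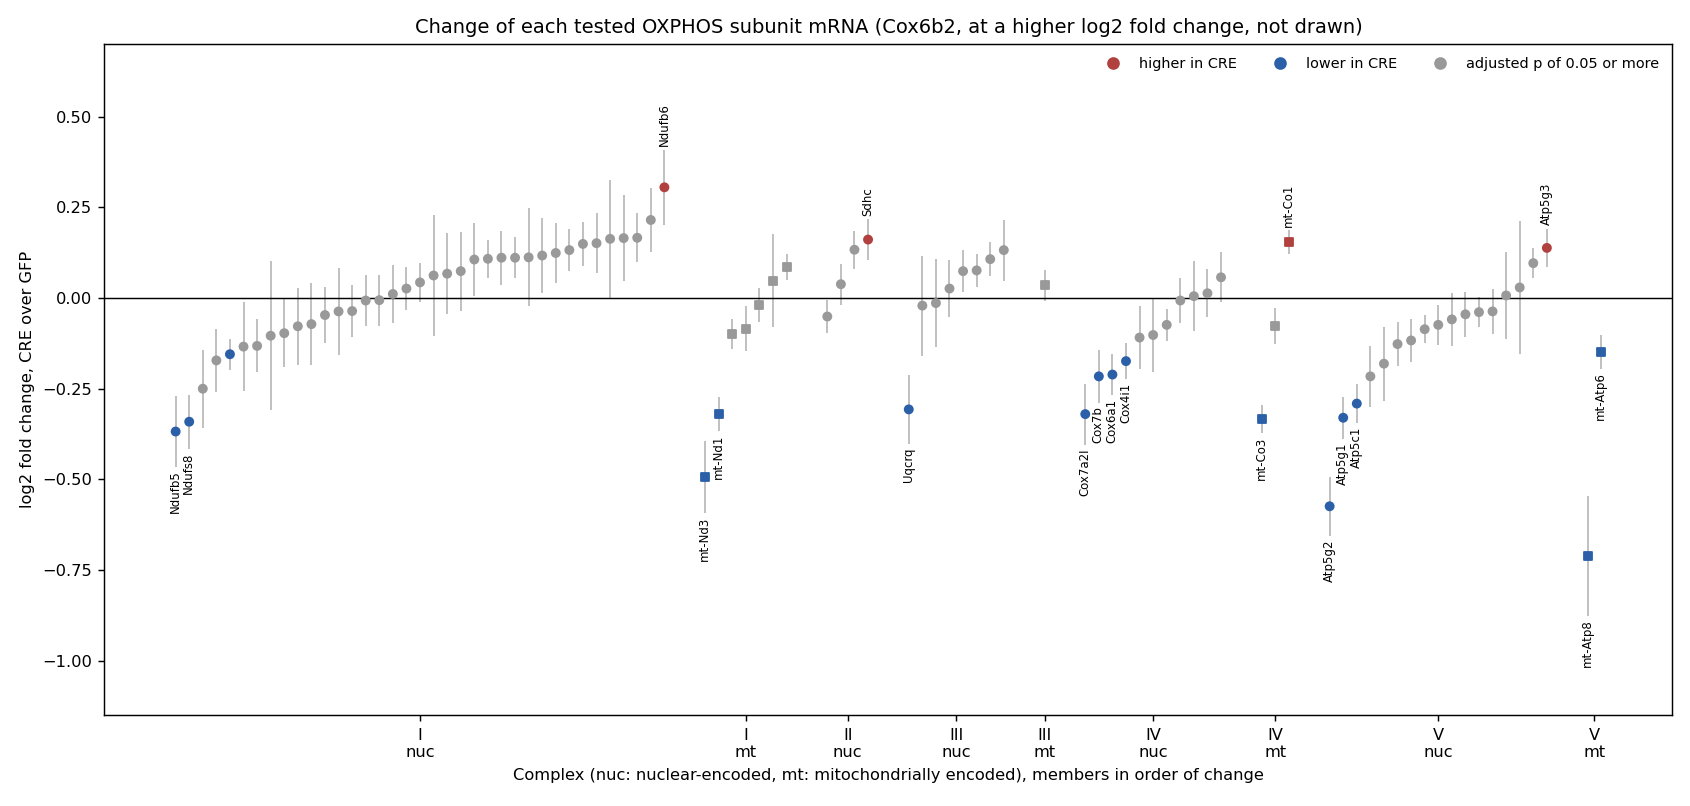
Log2 fold change of CRE over GFP (y axis, with SE bars) for 90 of the 91 tested members, ordered by change within each complex (x axis), with circles for nuclear and squares for mitochondrial members. Coloured points have an adjusted p under 0.05, and most of them are named. Most points lie near 0, Atp5g2 (-0.57) and mt-Atp8 (-0.71) lie lowest, and Cox6b2 (1.94) is not drawn.

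Summed levels of the complexes overlapped between the groups. Nuclear members summed to 4287, 4156 and 4523 CPM in GFP and 4273, 4114 and 4283 CPM in CRE. The CRE mean was 0.977 ± 0.047 (SD) of the GFP mean. By complex, the CRE mean was 1.01 ± 0.064 of GFP for complex I, 1.02 ± 0.029 for complex II, 1.02 ± 0.064 for complex III, 0.922 ± 0.067 for complex IV and 0.959 ± 0.036 for complex V (SD, n = 3 per group). Mitochondrial members summed to 36360, 35970 and 37400 CPM in GFP and 35420, 34900 and 36750 CPM in CRE. The ratio of mitochondrial to nuclear counts, which does not depend on scaling, was 8.48, 8.66 and 8.27 in GFP and 8.29, 8.48 and 8.58 in CRE, and the groups overlapped. As a share of the raw library total, in contrast, nuclear members made up between 0.393% and 0.428% in GFP and between 0.437% and 0.453% in CRE, and mitochondrial members between 3.40% and 3.54% and between 3.71% and 3.89%, without overlap.

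**Figure D2:**
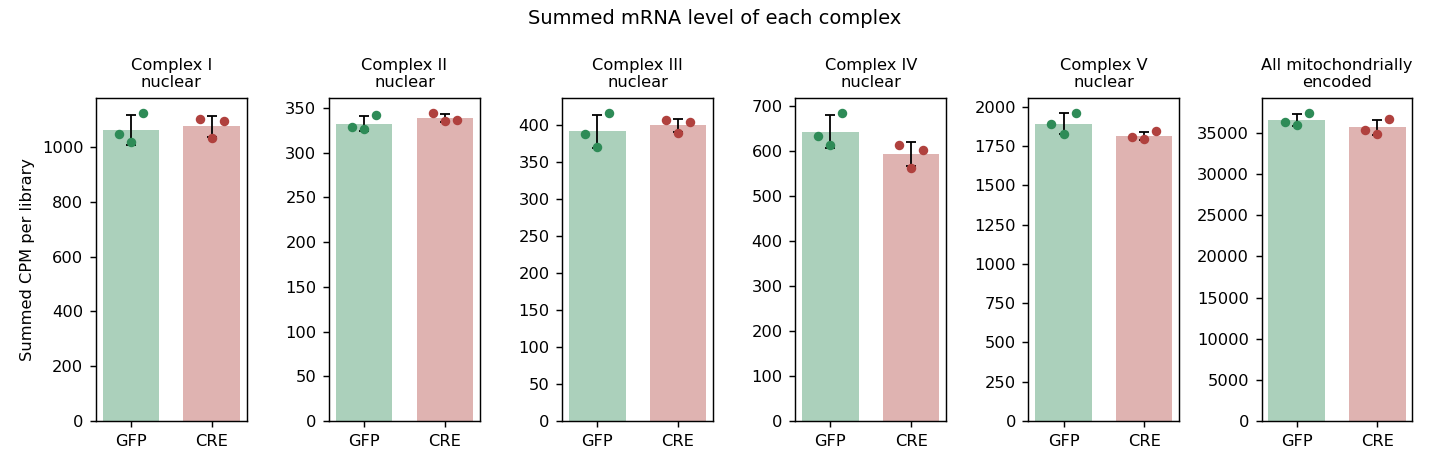
Summed CPM (y axis, from 0, with its own scale in each panel) of the nuclear members of complexes I to V and of all mitochondrial members in GFP and CRE. Bars are means, error bars are SD and points are the 3 libraries. The points of GFP and CRE overlap in each of the 6 panels.

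Among the 13 mitochondrial genes, 1 was higher and 5 were lower in CRE (46.2%), a share near the 51.2% of all tested genes, with a median log2 fold change of -0.09. The direction differed between genes that are cut from the same transcript. On CPM per kilobase they were the 13 highest of all members in GFP, from mt-Co1 at 6830 CPM per kilobase to mt-Nd4l at 362, above the highest nuclear member, Atp5b, at 316. In map order on the heavy-strand transcript they are mt-Nd1, mt-Nd2, mt-Co1, mt-Co2, mt-Atp8, mt-Atp6, mt-Co3, mt-Nd3, mt-Nd4l, mt-Nd4, mt-Nd5 and mt-Cytb, and mt-Nd6 is read from the opposite strand. Coordinates below are on chromosome M of GRCm38, and each of these genes is a single exon.

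Complex IV held both directions. mt-Co1 (5328-6872), which encodes the catalytic subunit with the site of oxygen reduction, was at 10440, 10580 and 10630 CPM in GFP and 11610, 11760 and 11840 CPM in CRE (log2 fold change 0.15 ± 0.03 SE, adjusted p = 0.00309, edgeR). All CRE libraries lay above all GFP libraries. mt-Co3 (8607-9390), a core subunit, was at 3971, 3867 and 4066 CPM in GFP and 3152, 3078 and 3215 CPM in CRE (-0.33 ± 0.04, adjusted p = 5.7e-05, edgeR). It was lower in CRE without overlap. mt-Co2 (7013-7696), the subunit that takes electrons from cytochrome c, was at 4315 ± 225 CPM in GFP and 4091 ± 191 CPM in CRE (SD), and the groups overlapped. Within a library, and so without any scaling, the ratio of mt-Co1 to mt-Co3 counts was 2.63, 2.74 and 2.61 in GFP and 3.68, 3.82 and 3.68 in CRE. The mean ratio was thus 1.40 times as high in CRE.

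In complex I, mt-Nd1 (2751-3707), part of the ubiquinone-binding region, was at 2931, 2861 and 3005 CPM in GFP and 2338, 2228 and 2484 CPM in CRE (-0.32 ± 0.05 SE, adjusted p = 0.000275, edgeR). mt-Nd3 (9459-9806), a membrane-arm subunit, was at 268, 247 and 328 CPM in GFP and 208, 179 and 212 CPM in CRE (-0.49 ± 0.10 SE, adjusted p = 0.002, edgeR). Both were lower in CRE without overlap. mt-Nd2 (3914-4951), the next gene after mt-Nd1 on the map and a proton-pumping subunit, was at 1389 ± 26.7 CPM in GFP and 1369 ± 73.7 CPM in CRE (SD), with overlap. The ratio of mt-Nd1 to mt-Nd2 counts was 2.07, 2.10 and 2.16 in GFP and 1.74, 1.70 and 1.71 in CRE, lower in CRE without overlap.

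The other complex I genes did not pass the test. mt-Nd4 (10167-11544), a proton-pumping subunit, had an estimate of 0.08 (95% interval 0.004 to 0.165, adjusted p = 0.074, edgeR), and mt-Nd5 (11742-13565), also proton-pumping, one of -0.10 (-0.192 to -0.008, adjusted p = 0.067, edgeR). The CRE and GFP libraries did not overlap for either gene. mt-Nd4l (9877-10173) and mt-Nd6 (13552-14070), small membrane subunits, had estimates of 0.05 ± 0.13 and -0.09 ± 0.06 (SE), with overlap. mt-Cytb (14145-15288), the cytochrome b of complex III, was at 3163 ± 69.8 CPM in GFP and 3241 ± 136 CPM in CRE (SD), with overlap.

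In complex V, mt-Atp8 (7766-7969), a small membrane subunit of ATP synthase, had the lowest log2 fold change of the 91 tested members. It was at 122, 125 and 154 CPM in GFP and 109, 65.0 and 71.7 CPM in CRE (-0.71 ± 0.17 SE, adjusted p = 0.0048, edgeR), and CRE replicate 1 lay nearer to GFP than the other CRE libraries did. mt-Atp6 (7927-8607), the subunit that forms the proton channel together with the ring of subunit c, was at 3197, 3219 and 3440 CPM in GFP and 2937, 2842 and 3117 CPM in CRE (-0.15 ± 0.05 SE, adjusted p = 0.024, edgeR). The ratio of mt-Atp8 to mt-Atp6 counts was 0.0382, 0.0389 and 0.0448 in GFP and 0.0371, 0.0229 and 0.0230 in CRE. The ratio in CRE replicate 1 was thus close to the lowest GFP ratio. These genes overlap on the same strand, and whether the ratio reflects mRNA levels or the assignment of reads was not tested. The call for mt-Atp6 was lost without GFP replicate 3, without CRE replicate 1 or without CRE replicate 2.

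The sequence of mt-Atp8 is shown because its end is also the start of mt-Atp6, so that reads there belong to both genes. It is read from the forward strand of GRCm38 at chrM:7766-7969, and the 43 capitals are the bases shared with mt-Atp6.
mt-Atp8: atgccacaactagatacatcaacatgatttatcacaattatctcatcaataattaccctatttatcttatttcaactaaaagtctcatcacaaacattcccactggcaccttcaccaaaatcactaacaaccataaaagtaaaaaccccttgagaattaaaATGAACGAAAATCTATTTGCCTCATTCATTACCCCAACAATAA
mt-Atp6 and mt-Co3 share 1 base, mt-Nd4l and mt-Nd4 share 7, and mt-Nd5 and mt-Nd6, on opposite strands, share 14. How reads over shared bases were counted, and whether strand was used, is not given in the sources used here, so mt-Atp8 is the most exposed of these values, since over the 204 bases of the gene the shared stretch takes 43.

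Several mitochondrial genes also have near-identical nuclear copies in the annotation. Of all 100-base windows, the share also found in another annotated gene was 99.9% for mt-Co3, 99.5% for mt-Co2 and mt-Atp6, 98.5% for mt-Nd4l, 97.6% for mt-Nd3, 60.8% for mt-Nd4, 30.8% for mt-Co1 and 3.19% for mt-Nd2. The levels of these genes are uncertain where the authors' counting could split or drop such reads. No window of mt-Nd1, mt-Atp8, mt-Nd5, mt-Nd6 or mt-Cytb was shared. The 10 nuclear genes that hold the copies have no row in the table.

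**Figure D3:**
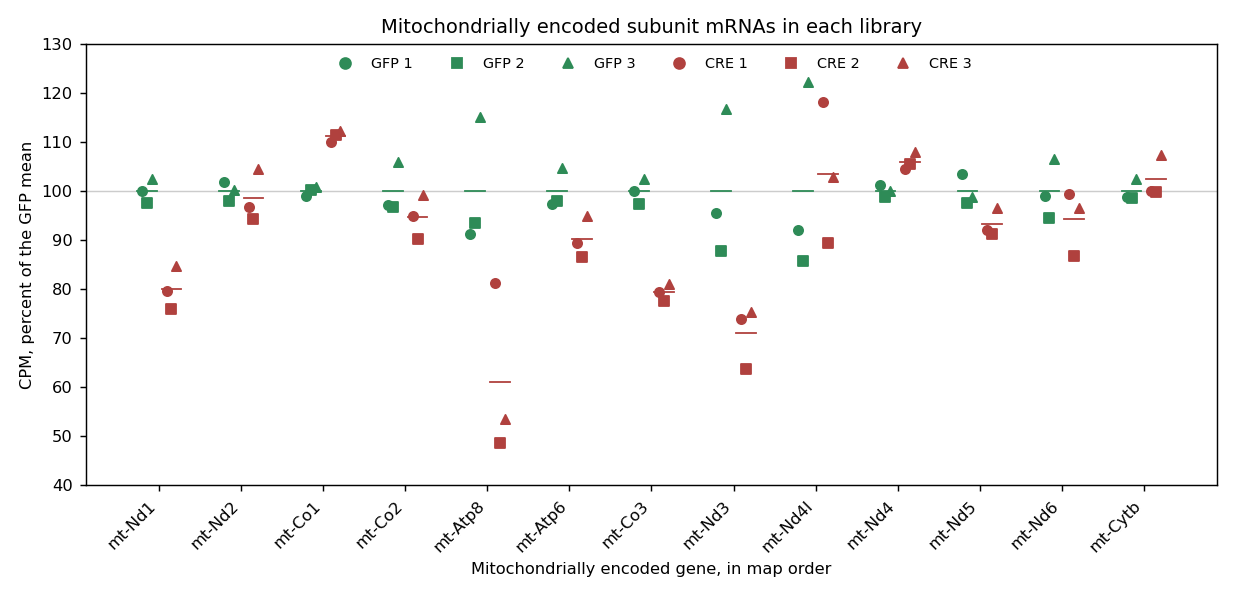
CPM of each mitochondrial gene in each library as percent of its GFP mean (y axis), in map order (x axis). Green symbols are GFP and red symbols CRE, circles, squares and triangles are replicates 1, 2 and 3, and short lines are group means. mt-Nd1, mt-Co3, mt-Nd3 and mt-Atp8 have CRE means between 61.2% and 80.1% of GFP, and mt-Co1 has one of 111%.

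Of the 37 tested nuclear members of complex I, 1 was higher and 3 were lower (10.8%, beside 51.2% of all tested genes). Its median log2 fold change was 0.04. Ndufs8, a core subunit that binds iron-sulfur clusters, was at 24.1, 22.8 and 22.0 CPM in GFP and 17.1, 18.3 and 18.9 CPM in CRE (-0.34 ± 0.07 SE, adjusted p = 0.00325, edgeR). It was lower in CRE without overlap.

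The accessory subunits Ndufb5 and Ndufb6, both of the membrane arm, went in opposite directions. Ndufb5 was at 22.9, 21.4 and 25.8 CPM in GFP and 20.3, 16.8 and 17.3 CPM in CRE (-0.37 ± 0.10 SE, adjusted p = 0.00961, edgeR). Ndufb6 was at 13.6, 16.6 and 16.4 CPM in GFP and 20.6, 17.1 and 20.1 CPM in CRE (0.31 ± 0.10 SE, adjusted p = 0.0312, edgeR), and CRE replicate 2 lay just above the highest GFP library. The call for Ndufb6 was lost without GFP replicate 1, CRE replicate 1 or CRE replicate 3. The log2 fold changes of the 33 members that did not pass the test lay between -0.25 (Ndufa3) and 0.22 (Ndufb10). Ndufa4, named for complex I but known to associate with complex IV, was at 46.9 ± 7.71 CPM in GFP and 50.5 ± 2.96 CPM in CRE (SD), with overlap. The 95% interval lay within a fold of 1.5 for all 37.

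In complex II, which links the tricarboxylic acid cycle to the respiratory chain, 1 of the 4 subunits was higher (25.0%, beside 25.5% of all tested genes that were higher). Sdhc, a membrane anchor that holds the heme, was at 61.6, 57.7 and 63.2 CPM in GFP and 70.0, 64.1 and 70.0 CPM in CRE (0.16 ± 0.06 SE, adjusted p = 0.0346, edgeR). CRE replicate 2 lay close to the highest GFP library, and the call was lost without GFP replicate 2, CRE replicate 1 or CRE replicate 3, and with DESeq2. Sdha, Sdhb and Sdhd had estimates of -0.05, 0.13 and 0.04.

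In complex III, 1 of the 8 nuclear subunits was lower (12.5%, beside 25.7% of all tested genes that were lower) and none was higher (edgeR). Uqcrq, a small accessory subunit, was at 51.7, 46.8 and 60.1 CPM in GFP and 44.9, 38.2 and 45.2 CPM in CRE (-0.31 ± 0.10 SE, adjusted p = 0.0209, edgeR). The groups did not overlap, but the call was lost without GFP replicate 3 or without CRE replicate 2. The other 7 had estimates between -0.02 (Uqcr10) and 0.13 (Uqcrh).

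In complex IV, 12 of the 19 nuclear members were tested, 1 was higher and 4 were lower (41.7%, beside 51.2% of all tested genes). All 4 lower members are widely expressed subunits or factors. Cox7a2l, a factor that helps join complexes III and IV into supercomplexes, was at 61.6, 53.1 and 65.1 CPM in GFP and 51.7, 43.6 and 48.6 CPM in CRE (-0.32 ± 0.08 SE, adjusted p = 0.00919, edgeR). Cox6a1, the form of subunit VIa found outside striated muscle, was at 73.1, 68.2 and 74.6 CPM in GFP and 60.6, 60.3 and 65.7 CPM in CRE (-0.21 ± 0.06 SE, adjusted p = 0.00933, edgeR). Neither gene's groups overlapped.

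Cox7b, a small membrane subunit, was at 46.9, 46.9 and 55.5 CPM in GFP and 44.4, 41.4 and 42.9 CPM in CRE (-0.22 ± 0.07 SE, adjusted p = 0.0297, edgeR). The groups did not overlap, but its call was lost without GFP replicate 3 (-0.13) or without each of the CRE libraries in turn (between -0.24 and -0.19). Cox4i1, the common form of subunit IV, was at 115, 109 and 119 CPM in GFP and 101, 98.6 and 106 CPM in CRE (-0.17 ± 0.05 SE, adjusted p = 0.0143, edgeR). Its call was lost without GFP replicate 3, CRE replicate 1 or CRE replicate 2. Cox6a1 and Cox4i1, like mt-Atp6, also missed the threshold with the length and GC offsets.

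The tissue-restricted forms of complex IV subunits were at or near 0. Cox6b2, known as the testis form of subunit VIb, had 8, 3 and 9 counts in GFP and 29, 36 and 16 counts in CRE (1.94 ± 0.45 SE, adjusted p = 0.00508, edgeR). All GFP counts were under the filter minimum of 10, so Cox6b2 entered the test only through CRE, and its adjusted p gives no support. Its highest level, 1.99 CPM, is far below that of the common form Cox6b1, which was at 57.1 ± 2.40 CPM in GFP and 56.8 ± 3.85 CPM in CRE (SD). Cox4i2, the form of subunit IV known from lung, had 8, 13 and 17 counts in GFP and 7, 3 and 5 in CRE and was not tested. The striated-muscle forms Cox6a2, Cox7a1 and Cox8b had at most 5, 4 and 0 counts in any library. Cox7b2 and Cox8c, known from testis, had at most 1 and 0 counts, and the pseudogene Cox5b-ps at most 1. Cox8a and Cox7a2, the common forms, were at 83.8 ± 2.72 CPM and 28.7 ± 1.33 CPM in GFP and at 79.6 ± 1.25 CPM and 29.8 ± 1.96 CPM in CRE (SD), with overlap. The members left out of the test in other complexes, Ndufb11b and the Atp5o row with the identifier ENSMUSG00000116933, had 0 counts in every library.

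In complex V, 17 of the 18 nuclear members were tested, 1 was higher and 3 were lower (23.5%, against the same 51.2%). The genes for subunit c changed in opposite directions. Atp5g1, Atp5g2 and Atp5g3 code for the same mature subunit, the proton-carrying ring of the ATP synthase, behind different import sequences. Atp5g2 was at 48.0, 41.4 and 49.8 CPM in GFP and 34.0, 29.7 and 29.8 CPM in CRE (-0.57 ± 0.08 SE, adjusted p = 0.000244, edgeR). Atp5g1 was at 57.0, 50.2 and 53.6 CPM in GFP and 43.3, 41.8 and 42.9 CPM in CRE (-0.33 ± 0.06 SE, adjusted p = 0.000916, edgeR). Both were lower in CRE without overlap.

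Atp5g3 was at 63.3, 65.5 and 65.7 CPM in GFP and 75.6, 68.6 and 69.9 CPM in CRE (0.14 ± 0.05 SE, adjusted p = 0.046, edgeR). It was higher in CRE without overlap, but the call was lost with RLE scaling, DESeq2, no filter and a replicate block. The call was also lost without each of the GFP libraries in turn, CRE replicate 1 or CRE replicate 3, at estimates between 0.10 and 0.16. The share of Atp5g3 in the counts of the 3 genes, which needs no scaling, was 37.6%, 41.7% and 38.8% in GFP and 49.4%, 49.0% and 49.0% in CRE. That of Atp5g2 was 28.5%, 26.4% and 29.5% in GFP and 22.2%, 21.2% and 20.9% in CRE. That of Atp5g1 was 33.9%, 32.0% and 31.7% in GFP and 28.3%, 29.8% and 30.1% in CRE. None of the 3 shares overlapped between the groups.

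The coding ends of the 3 genes are shown because they encode the shared mature protein and so show how far reads can be told apart. Each run is the last 150 coding bases in GRCm38 with the stop codon, read 5′ to 3′ on the minus strand, from exons within chr11:96073104-96073557 (Atp5g1), chr15:102663014-102665088 (Atp5g2) and chr2:73908593-73909218 (Atp5g3). The 39 capitals mark positions where the 3 genes are not all alike.
Atp5g1: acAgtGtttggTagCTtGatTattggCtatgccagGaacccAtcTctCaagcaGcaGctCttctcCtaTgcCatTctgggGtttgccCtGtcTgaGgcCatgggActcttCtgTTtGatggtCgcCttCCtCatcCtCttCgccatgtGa
Atp5g2: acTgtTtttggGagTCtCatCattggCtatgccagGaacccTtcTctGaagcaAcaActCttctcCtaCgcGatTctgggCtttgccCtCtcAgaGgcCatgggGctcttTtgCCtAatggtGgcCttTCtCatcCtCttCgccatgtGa
Atp5g3: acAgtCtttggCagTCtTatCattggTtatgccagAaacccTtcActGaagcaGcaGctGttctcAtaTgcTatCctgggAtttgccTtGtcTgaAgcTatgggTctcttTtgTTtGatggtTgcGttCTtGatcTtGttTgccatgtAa
Atp5g1 and Atp5g2 are 84.7% identical here, Atp5g1 and Atp5g3 80.7%, and Atp5g2 and Atp5g3 78.0%. The longest stretches shared by these pairs are 21, 11 and 8 bases. Other annotated genes do hold 41.4% of the 100-base windows of Atp5g2, so its level is uncertain where reads could fall on those copies.

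**Figure D4:**
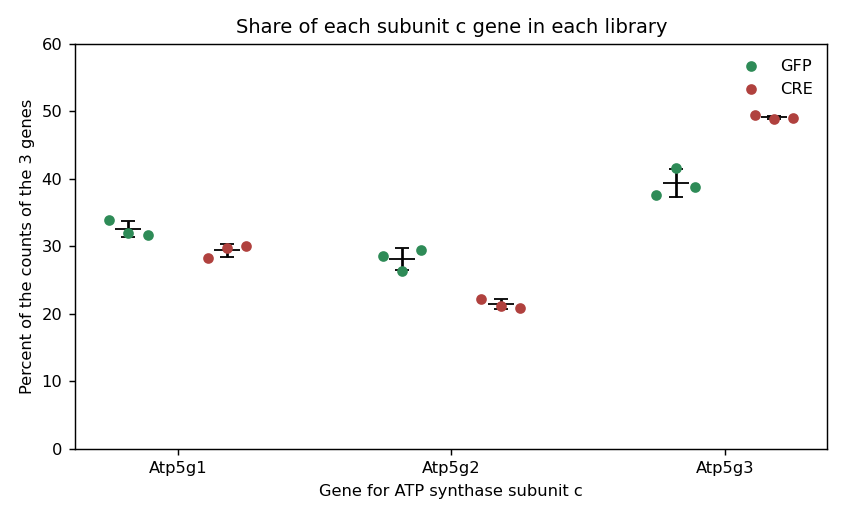
Share of each subunit c gene in the counts of the 3 genes (y axis, percent) in each library, with GFP in green, CRE in red and black lines for the mean and SD. Atp5g3 rises from a mean of 39.4% in GFP to 49.1% in CRE, while Atp5g2 goes from 28.1% to 21.5% and Atp5g1 from 32.5% to 29.4%.

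Atp5c1, the gamma subunit that forms the central stalk, was at 116, 104 and 118 CPM in GFP and 91.4, 90.3 and 94.4 CPM in CRE (-0.29 ± 0.05 SE, adjusted p = 0.00135, edgeR). Atp5a1 and Atp5b, the alpha and beta subunits around that stalk, had estimates of 0.10 and -0.09 and did not pass the test. The ratio of Atp5c1 to Atp5a1 counts was 0.292, 0.269 and 0.294 in GFP and 0.223, 0.214 and 0.219 in CRE, and that of Atp5c1 to Atp5b was 0.186 ± 0.0098 in GFP and 0.162 ± 0.0041 in CRE (SD). Neither ratio overlapped between the groups. The other tested members of complex V that did not pass had estimates between -0.22 (Atp5md) and 0.03 (Atp5k).

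Of the 21 calls, those for mt-Nd3, mt-Co1, mt-Atp8, Cox6b2, Atp5g2 and Atp5g1 held in every other scaling, filter, tool or design that tested the gene and without each library in turn. Of these genes, Cox6b2 entered the test only through CRE. Without GFP replicate 3 and CRE replicate 2 together, 10 of the 21 calls were made, and among the 6 just named mt-Co1 and mt-Atp8 then missed the threshold. The 10 were those for Atp5g2, Atp5g1, Cox6b2, mt-Co3, mt-Nd1, mt-Nd3, Ndufb6, Ndufs8, Sdhc and Atp5c1. Ndufb10, Ndufa12, Ndufb3, Ndufa4 and mt-Nd4l, which had not passed with all libraries, were then higher. With library size alone or on FPKM, the calls for Ndufb5, Uqcrq, Cox7a2l, Cox7b, Cox6a1, Cox4i1, mt-Atp6 and Atp5c1 were lost in both, that for Ndufs8 with library size alone and those for mt-Nd1 and mt-Co3 on FPKM. The estimate for mt-Atp6 then turned to 0.015 and 0.014.

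Promoters of nuclear members were searched for the letters of sites for NRF1, GABP (an ETS factor) and YY1, which are known regulators of these genes. RefSeq promoter windows of GRCm38.p6, from 250 bases before to 50 bases after the start, were found for 69 nuclear members. The NRF1 site, whose 10 letters are the capitals in the Atp5g2 sequence shown next, was present on either strand in 7.25% of these members, in 2.31% of tested genes with a window and in 1.07% of all 27025 genes with a window. A gene with more than 1 window counted once. A relaxed form with any base at the sixth position, which takes in the first, was present in 24.6%, 11.4% and 5.19%. The ETS core CCGGAAG was present in 24.6%, 19.8% and 9.93%, and the YY1 core GCCATNTT in 24.6%, 9.80% and 6.96%. Of the 8 lower nuclear members with a window, 2 held the NRF1 site, 3 its relaxed form, 2 the ETS core and 3 the YY1 core, and of the 55 tested members with a window that did not pass the test, 3, 13, 14 and 14 did. Of the 3 higher members with a window, 1 held the relaxed NRF1 form and 1 the ETS core, and none held the full NRF1 site or the YY1 core. A match in letters is a description and not a bound site.

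An example of each is shown from a lower member, as the last 120 bases before the start, read 5′ to 3′ on the gene's strand, with the matched letters in capitals. They are the NRF1 site of Atp5g2 (chr15:102671048-102671167, minus strand), the ETS core of Cox6a1 on the opposite strand (chr5:115348959-115349078, minus strand) and the YY1 core of Ndufb5 on the opposite strand (chr3:32736943-32737062, plus strand). These RefSeq starts lie downstream of the outermost starts in the GENCODE annotation, so all 3 matches fall within the GENCODE gene.
Atp5g2: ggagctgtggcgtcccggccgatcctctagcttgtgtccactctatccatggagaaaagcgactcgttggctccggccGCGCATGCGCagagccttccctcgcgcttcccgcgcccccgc
Cox6a1: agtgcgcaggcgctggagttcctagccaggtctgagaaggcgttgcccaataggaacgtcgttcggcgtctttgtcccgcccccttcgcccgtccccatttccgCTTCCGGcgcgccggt
Ndufb5: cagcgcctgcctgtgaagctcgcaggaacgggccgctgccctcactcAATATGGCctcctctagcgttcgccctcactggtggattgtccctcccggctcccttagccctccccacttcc

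Among the nuclear regulators of mitochondrial biogenesis, 2 of 12 tested were higher and 3 were lower (41.7%, beside 51.2% of all tested genes). Esrra, the nuclear receptor ERRα, was at 10.4 ± 0.68 CPM in GFP and 16.2 ± 1.22 CPM in CRE (SD), a log2 fold change of 0.63 ± 0.10 (SE, adjusted p = 0.00035, edgeR). Gabpa, the DNA-binding subunit of GABP, was also higher (0.19 ± 0.05 SE). Pprc1, a coactivator of the PGC-1 family, was lower (-0.41 ± 0.07 SE), as was Gabpb2, a partner subunit of GABP (-0.29 ± 0.06 SE). The call for Gabpb2 was lost with library size alone (-0.12) and on FPKM (-0.10). Ppargc1a, the coactivator PGC-1α, was at most 0.846 CPM in any library and was not tested.

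Assembly factors help to build the complexes and are not part of them. Of 50 tested, 10 were higher and 7 were lower (34.0%, beside 51.2% of all tested genes), with a median log2 fold change of 0.07. For complex I, Timmdc1 (0.44) and Ndufaf2 (0.48) were higher and Ndufaf7 (-0.29) was lower, out of 16. For complex II, Sdhaf1 (0.51) and Sdhaf2 (0.29) were higher, out of 4. For complex III, Uqcc1 (0.35) was higher and 3 of 6 were lower, Uqcc2 (-0.54) and Ttc19 (-0.53) the most. For complex IV, 5 were higher and 3 were lower out of 19, from Cox19 (0.66), which serves copper delivery, and Coa4 (0.60) to Cox20 (-0.43) and Sco2 (-0.88), the latter a copper chaperone. Sco2 was at 8.27, 5.47 and 7.38 CPM in GFP and 3.33, 3.77 and 4.33 CPM in CRE (adjusted p = 0.00225, edgeR). The call for Ndufaf7 was lost with library size alone (-0.13), on FPKM (-0.08), with DESeq2, with the block and offsets together and without each library other than GFP replicate 1, where the estimate stayed between -0.31 and -0.26. That for Coa4 was lost with DESeq2, without GFP replicate 2 (0.47) and without CRE replicate 2 (0.54), and that for Cox20 with DESeq2, with library size alone (-0.27), without GFP replicate 3 (-0.34) and without CRE replicate 2 (-0.38). Without GFP replicate 3 and CRE replicate 2 together, with fewer libraries to test on, these calls missed the threshold at -0.26 for Ndufaf7, 0.64 for Coa4 and -0.29 for Cox20, as did that for Uqcc2 at -0.30. None of the 5 factors for complex V passed the test at an adjusted p under 0.05 (edgeR), and 1 of them did not overlap between the groups.

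Factors that maintain mitochondrial DNA and handle its RNA counted 4 higher and 2 lower of 27 (22.2%, against the same 51.2%). Mterf4 (0.57), which acts in mitochondrial ribosome assembly, and Mgme1 (0.54), a mitochondrial DNA exonuclease, were higher. Rexo2, an exonuclease that degrades very short RNA, was at 81.1, 77.9 and 80.7 CPM in GFP and 54.5, 53.3 and 53.9 CPM in CRE (-0.57 ± 0.05 SE, adjusted p = 5.25e-06, edgeR), and Mterf2, of the mitochondrial transcription termination factor family, was also lower (-0.54). Both were lower without overlap. The call for Mgme1 was lost without GFP replicate 2 (0.41) or CRE replicate 2 (0.50). That for Mterf2 was lost without GFP replicate 2 (-0.45), without CRE replicate 2 (-0.46), with library size alone (-0.37), on FPKM (-0.15) and without GFP replicate 3 and CRE replicate 2 together (-0.47).

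Of 8 tested carriers and porins that serve ATP synthesis, 6 were lower (75.0%, beside 25.7% of all tested genes that were lower) and none was higher (edgeR). No test of the list as a whole was run, and this count was made with TMM scaling only. Slc25a5, the ADP/ATP carrier of most proliferating cells, was at 216, 204 and 211 CPM in GFP and 142, 135 and 138 CPM in CRE (-0.60 ± 0.04 SE, adjusted p = 3.23e-06, edgeR). Atpif1, the inhibitor of ATP synthase, was also lower (-0.31), a call lost with library size alone (-0.14), on FPKM (-0.14), without GFP replicate 3 (-0.26) and without that library and CRE replicate 2 together (-0.18). Of 14 enzymes of the tricarboxylic acid cycle, 5 were higher and 3 were lower (57.1%, near the 51.2% of all tested genes), from Ogdh (0.26) and Dld (0.20) to Suclg2 (-0.39) and Idh2 (-0.44). Cytochrome c1 (Cyc1), cytochrome c (Cycs) and the acyl carrier subunit Ndufab1, which the symbol rule does not take in, had estimates of -0.02, 0.06 and 0.05 and overlapped between the groups.

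Mitochondrial ribosomal protein genes, which serve the translation of the 13 mitochondrially encoded subunits, counted 19 higher and 9 lower of 78 (35.9%, against the same 51.2%, median 0.09). Cytosolic ribosomal protein genes, which are also short and highly expressed, counted 4 higher and 80 lower of 92 (91.3%, median -0.58). The difference between these lists and the subunit genes was not tested.

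**Figure D5:**
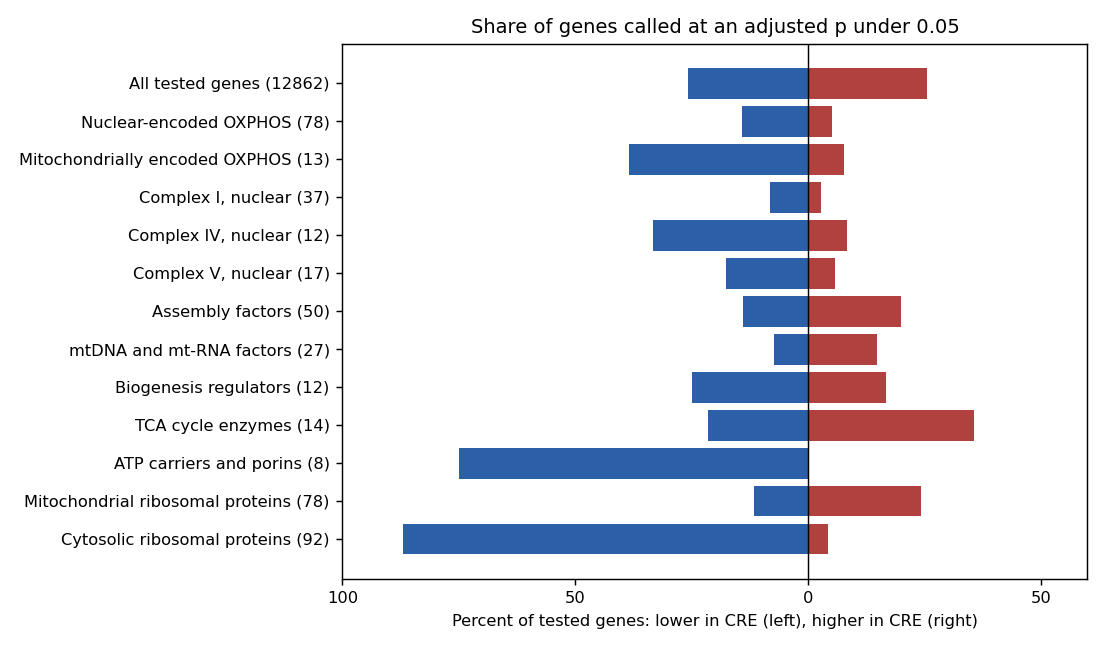
Percent of the tested genes of each group (number tested in brackets) that were lower in CRE (blue, left) or higher in CRE (red, right) at an adjusted p under 0.05. Nuclear subunits were called in 19.2% of 78 genes, beside 51.2% of all tested genes and 91.3% of the cytosolic ribosomal protein genes.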

How the data were processed

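RNA-seq counts of 6 libraries were analysed, 3 per group, and titles gave the group and replicate number. According to the methods of the study, Trimmomatic, HISAT2 (GRCm38) and HTSeq-count led to the counts, Cufflinks to FPKM, and DESeq was the test. The submitters' processing notes name GRCm38 and mm10. Tool versions and the strand option of the counting are not given in the sources used here. Labels and methods name different RNA and library kits, and the kit in the methods is a stranded one. The authors deposited raw counts per gene, which were not normalized, and FPKM values per library, used as an alternative. Group mean FPKM, the log2 ratio of those means, p-values and false discovery rates deposited by the authors belong to their own comparison and were not used.

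Counts were tested in R 4.3.3 with edgeR 4.0.16 by the two-sided quasi-likelihood test after filterByExpr (minimum count 10, minimum total 15) and TMM scaling, with Benjamini-Hochberg adjustment over 12862 genes. TMM factors ranged from 0.944 to 0.947 (GFP) and from 1.05 to 1.06 (CRE). The SE was taken as the size of the estimate over the square root of F. Alternatives were RLE scaling, library size alone, upper-quartile scaling, mitochondrial genes left out, other filters, DESeq2 1.42.0, limma-voom (limma 3.58.1), loess offsets for transcript length and GC content, limma on log2(FPKM + 1), a replicate block, a fold threshold and leaving out libraries. Leaving out GFP replicate 3 and CRE replicate 2 together and count ratios within libraries were chosen after seeing the data. The count test was run on simulated data for 12862 genes, 5 times, with 200 changed by 1.5 or its inverse: 75.2% were recovered and 7.92% of calls were unchanged genes. Change as broad as in these data, where 51.2% of tested genes were called, was not simulated, so the effect of scaling was not covered.

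Coordinates, lengths (median over coding transcripts) and shared windows came from GENCODE M21, in which 21973 of 22063 genes were found. Members and lists were chosen with earlier results of these data known. The named genes are every mitochondrial member, up to 3 highest and 3 lowest called nuclear members per complex, tissue isoforms, members not tested, and up to 2 highest and 2 lowest called genes per list. Other genes were named after their values were seen. The result of 1 gene that the rule names is not reported here. Figures were drawn with matplotlib 3.10.9.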

Additional observations from a re-analysis of the deposited data

How the results depend on the processing

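The counts of higher and lower members were 5 and 16 over all members, 4 and 11 for nuclear members and 1 and 5 for mitochondrial ones. Library size alone gave 33 and 6, 29 and 2, and 4 and 4. FPKM gave 31 and 5, 28 and 3, and 3 and 2. Higher members numbered 13, 11 and 2 with upper-quartile scaling, 18, 16 and 2 with length and GC offsets, with or without the replicate block, and 3 and 2 (all and nuclear) with DESeq2. The fold threshold left 1 and 1, 1 and 0, and 0 and 1. Without GFP replicate 3 and CRE replicate 2 together, 8 and 7 members, 7 and 4 nuclear members and 3 lower mitochondrial members were called. Leaving out 1 library gave between 2 and 8 higher and between 12 and 18 lower members, between 1 and 7 higher and between 8 and 13 lower nuclear ones, and 1 higher and between 4 and 5 lower mitochondrial ones.

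Summed levels of CRE over GFP by library size alone were 1.09 for nuclear and mitochondrial members, 1.13, 1.14 and 1.14 for complexes I, II and III, and 1.03 and 1.07 for complexes IV and V. Both totals and complexes IV and V had been below 1 and so turned direction. Estimates near 0 turned sign under library size alone and FPKM for Cox6b1 (0.155 and 0.151), Cox8a (0.088 and 0.088), Cyc1 (0.143 and 0.146), mt-Atp6 (0.015 and 0.014), mt-Co2 (0.086 and 0.086), mt-Nd2 (0.142 and 0.141), mt-Nd5 (0.063 and 0.062) and mt-Nd6 (0.077 and 0.076), and under FPKM for Ndufab1 (-0.080). Length and GC offsets without and with the block gave 0.071 and 0.071 for Cox6b1, 0.018 and 0.020 for Cox8a, 0.058 and 0.057 for Cyc1 and 0.024 and 0.023 for mt-Nd2. Upper-quartile scaling gave 0.012 for Cox6b1. Without both libraries, Cox6b1 was 0.083, Cyc1 0.029, mt-Co2 0.007, mt-Nd2 0.017 and mt-Nd6 0.024. Leaving out 1 library gave between -0.049 and 0.047 for Cox6b1, -0.065 and 0.011 for Cyc1, -0.007 and 0.108 for Cycs, -0.030 and 0.129 for Ndufab1, -0.061 and 0.015 for mt-Nd2, and -0.054 and 0.218 for mt-Nd4l.

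Deviations of same-numbered libraries correlated at 0.046, 0.18 and -0.018. With 3 libraries per group, these values cannot settle whether the numbers pair the samples. With the replicate block, 22 members were called instead of 21; Atp5g3 was lost, and mt-Nd5 and Ndufb10 were gained. Tet3 stayed lower under every alternative. The cause of these shifts was not tested. Calls rest on 3 libraries per group, and counts such as those of Cox6b2 (3 to 36) limit its estimate.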

Other observations

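Ndufa4l2, a paralog of Ndufa4 that is known to be induced in hypoxia, was left out of the members by their rule. It was at 40.5, 37.5 and 45.3 CPM in GFP and 13.3, 14.6 and 13.6 CPM in CRE (log2 fold change -1.58 ± 0.08 SE, edgeR adjusted p = 5.10e-07). The CRE libraries lay below the GFP libraries without overlap, and the estimate is further from 0 than that of any tested member except Cox6b2. Ndufa4 itself had an estimate of 0.11, with overlap.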
